A study of Capra hircus with 2 samples.

Results

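CXCL8 is the gene of a secreted chemokine, and it was examined here together with NFKB1, NFKBIA, NFKBIE and CCL24 in single cells from the skin of Liaoning cashmere goats. These 5 genes were taken by name from the 27137 features of the count matrix, and all 5 were found. Their identifiers in the matrix were 102178438 for CXCL8, 102175660 for NFKB1, 102169137 for NFKBIA, 102181909 for NFKBIE and 102173628 for CCL24.

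Skin from the scapular region of healthy goats was collected in anagen, the growth phase of the hair cycle. It was dissociated and profiled by droplet single-cell RNA sequencing. A library was made from 1 coarse-type goat (CT-LCG) and from 1 fine-type goat (FT-LCG). The labels do not tell the types of the samples apart, so the library of each cell was read from the deposited cell table. Each fibre type is therefore 1 animal and 1 library, so no test between the types was possible, and every interval below covers counting error only. No treatment, transgene or cell sort is named in the labels.

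NF-kB is a family of transcription factors that is held in the cytoplasm by IkB proteins. Signals from receptors for bacterial products, TNF or IL-1 activate the IKK kinases, the IkB proteins are degraded, and NF-kB enters the nucleus. NFKB1 encodes the p105 precursor of the p50 subunit, and NFKBIA and NFKBIE encode IkB alpha and IkB epsilon, whose own transcription is induced by NF-kB and closes a feedback loop. CXCL8 attracts neutrophils and is a classical NF-kB target in myeloid cells, keratinocytes and fibroblasts. CCL24 is a chemokine that attracts eosinophils and is made by macrophages. The study followed CXCL8 among its candidate genes for cashmere fineness in dermal papilla cells of secondary hair follicles.

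The deposited cell table held 3443 cells of CT-LCG with a median of 2314 unique molecular identifiers (UMIs, counted molecules) and 9608 cells of FT-LCG with a median of 6121.5 UMIs. The libraries held 27890472 and 85400323 UMIs in these cells. Both libraries contained 11 barcode sequences in common, and none of them belonged to a cell described one by one below. A level below is a gene's UMIs in all cells of a group, given per 10000 UMIs of that group. Cells were grouped in 15 clusters, 1 of which held the immune cells and was divided into 4. Clusters are named after marker lists and written as X-like.

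CXCL8 was detected in few cells, and most of its UMIs came from a handful of them. In CT-LCG 189 of 3443 cells (5.49%, Clopper-Pearson interval 4.75 to 6.30) had a CXCL8 UMI, and 141 of these had exactly 1. In FT-LCG 765 of 9608 cells (7.96%, 7.43 to 8.52) had a CXCL8 UMI, and 652 had exactly 1. The level over all cells was 0.730 (0.698 to 0.762) in CT-LCG from 2035 UMIs and 0.638 (0.622 to 0.656) in FT-LCG from 5452 UMIs. Their order rested on 1 cell: without the cell with most CXCL8 in each library the levels were 0.548 (0.521 to 0.577) for CT-LCG and 0.606 (0.589 to 0.623) for FT-LCG.

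In CT-LCG 3 cells held at least 50% of the CXCL8 UMIs and 10 cells held 80.3% of them. In FT-LCG 15 cells held at least 50% and 41 cells held just over 80%. The smallest set of cells that reached 80% in each library is called the carriers below. Carriers were 0.290% of the CT-LCG cells and 0.427% of the FT-LCG cells. The last CT-LCG carrier had 34 CXCL8 UMIs, and 1 further cell with the same count fell outside. The last FT-LCG carrier also had 34 UMIs and the first cell outside had 32.

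**Figure D1:**
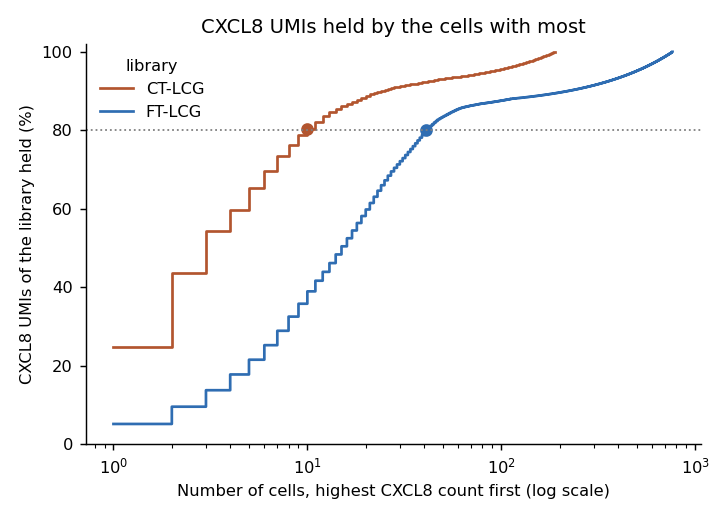
Percent of each library's CXCL8 UMIs (vertical axis) held by a given number of cells, counted from the cell with most (horizontal axis, log scale); the dotted line marks 80% and the dots mark the carriers, 10 cells in CT-LCG versus 41 in FT-LCG. The CT-LCG curve starts at 24.9%, the share of a single cell, and the FT-LCG curve at 5.14%.

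This concentration was set beside that of every gene with at least 1000 UMIs, whatever its abundance above that. The 1% of cells with most CXCL8 held 91.8% of its UMIs in CT-LCG (35 cells) and 87.5% in FT-LCG (97 cells). By this measure CXCL8 ranked 17th of 3287 such genes in CT-LCG and 52nd of 6687 in FT-LCG, where the median gene had 12.9% and 15.7%. CD74, a gene of antigen presentation described below, was nearly as concentrated, with 90.7% (rank 20) in CT-LCG and 83.3% (rank 77) in FT-LCG. NFKBIA, which was found in most cells, had only 10.2% and 11.5% of its UMIs in its top 1% of cells.

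The 10 CT-LCG carriers held 506, 380, 218, 113, 110, 89, 80, 57, 48 and 34 CXCL8 UMIs. The 41 FT-LCG carriers held between 34 and 280, with a median of 90. The single highest CT-LCG cell gave 24.9% of that library's CXCL8 UMIs, while the highest FT-LCG cell gave 5.14%. CXCL8 made up between 0.199% and 5.12% of all UMIs of a CT-LCG carrier and between 0.0794% and 7.32% of an FT-LCG carrier. Carriers had more UMIs than the typical cell of their library, with medians of 10131 in CT-LCG versus 16430 in FT-LCG.

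Carriers lay mainly in the clusters that express genes of antigen presentation. Of the 10 CT-LCG carriers 9 lay in the antigen-presenting cell-like clusters, and 1 lay in an unnamed epithelial cluster with 48 CXCL8 UMIs and 4.31% of its UMIs from KRT5, KRT14, KRT1 and KRT10. Of the 41 FT-LCG carriers 34 lay in the antigen-presenting cell-like clusters, 3 in a small T cell-like cluster, 3 in an unnamed cluster led by the ion channel gene TRPV3 and 1 in the mast cell-like cluster. The 3 carriers in the T cell-like cluster are called by that cluster only, since no carrier of either library had a UMI of CD3D, CD3E or CD3G. Before it was divided, the immune cluster held 87.5% (86.0 to 88.9) of the CT-LCG and 81.1% (80.1 to 82.2) of the FT-LCG CXCL8 UMIs.

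CD74, the invariant chain that guides MHC class II molecules, was found in most carriers. In the order of CXCL8 given above, the CT-LCG carriers held 113, 92, 147, 0, 191, 58, 100, 93, 0 and 13 CD74 UMIs. CD74 was thus present in 8 of 10 carriers (80%, 44.4 to 97.5), always with at least 10 UMIs. In FT-LCG 38 of 41 carriers had CD74 (92.7%, 80.1 to 98.5), with a lowest count of 0, a median of 46 and a highest count of 149.

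Keratinocytes, here the cells of the basal, suprabasal and granular keratinocyte-like clusters, rarely had a CD74 UMI. They were deeper than carriers in CT-LCG and shallower in FT-LCG. CD74 was found in 15 of 825 CT-LCG keratinocytes (1.82%, 1.02 to 2.98) at a median of 13523 UMIs per cell and in 126 of 2841 FT-LCG keratinocytes (4.44%, 3.71 to 5.26) at a median of 9258. When every cell was reduced to 1000 random UMIs, CD74 remained in 8 of 10 and 32 of 41 carriers (78.0%, 62.4 to 89.4) and in 0.379% and 0.788% of keratinocytes. These intervals cover counting error only. CD74 is on the marker list behind the antigen-presenting cell-like names and was not kept out of the clustering. A low CD74 share in keratinocytes could thus be partly set by how they were chosen. Of all cells that were not carriers, whatever their cluster, 4.63% (3.95 to 5.39) had CD74 in CT-LCG and 6.54% (6.06 to 7.06) in FT-LCG.

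The same overlap can be given as a share of the CD74-rich cells. Of the 17 CT-LCG cells with at least 10 CD74 UMIs, 12 had at least 10 CXCL8 UMIs (70.6%, 44.0 to 89.7), and so had 47 of 78 such cells in FT-LCG (60.3%, 48.5 to 71.2). Carriers alone held 52.0% of all CD74 UMIs in CT-LCG versus 50.1% in FT-LCG, with 0.425% and 1.01% of all UMIs. Across the carriers of FT-LCG the levels of CXCL8 and CD74 had a Spearman rho of 0.625 (n = 41 cells), and across those of CT-LCG 0.170 (n = 10 cells). These cells share a library and each pair of levels shares the depth of the cell, so the values are descriptions.

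**Figure D2:**
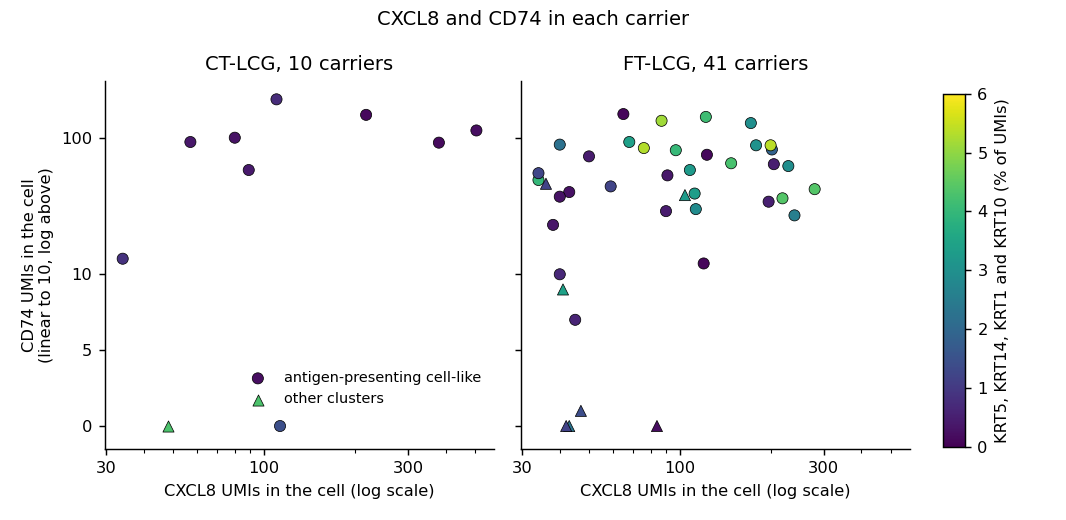
CXCL8 UMIs (horizontal axis, log scale) and CD74 UMIs (vertical axis, linear to 10 and log above) in each carrier of CT-LCG (left) and FT-LCG (right); circles lie in the antigen-presenting cell-like clusters, triangles in other clusters, and the colour gives the percent of UMIs from KRT5, KRT14, KRT1 and KRT10. Most points lie above 10 CD74 UMIs, and the points at 0 are 2 of 10 CT-LCG and 3 of 41 FT-LCG carriers.

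Other markers of antigen-presenting cells were present in the carriers as well. Of the 18 measured markers on that list, 15 had a UMI in the CT-LCG carriers and 14 in the FT-LCG carriers, and CD14, FLT3 and ITGAX were at 0 in the former and C1QA, C1QB, C1QC and CCR7 in the latter. Without CD74, which is on that list, the summed level was 27.2 (24.3 to 30.3) in CT-LCG carriers against 0.153 in keratinocytes, and 12.7 (11.9 to 13.5) against 0.118 for FT-LCG. This summed level was higher still in antigen-presenting cell-like cells that were not carriers, at 74.2 (67.9 to 81.0) in CT-LCG and 14.7 (13.5 to 16.0) in FT-LCG. By the median cell the sets were close, at 29.7 in CT-LCG carriers against 27.9 in these other cells, and 18.9 against 19.2 for FT-LCG. CD207, the langerin of Langerhans cells, was found in 7 of 10 CT-LCG and 30 of 41 FT-LCG carriers. C1QA, a complement gene of macrophages, was found in 1 CT-LCG carrier and in none of FT-LCG.

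Lists of other cell types were also read in carriers, and several had a higher summed level than in keratinocytes. The mast cell list stood at 41.9 in CT-LCG carriers against 0.0249 in keratinocytes, and at 13.5 against 0.0165 for FT-LCG, with a UMI in 9 of 10 and 37 of 41 carriers. Most of it was SRGN, a proteoglycan gene that many blood cells use, and without SRGN the list stood at 0.675 and 0.151 in carriers, from 8 and 13 UMIs of HPGDS alone. The defining mast cell genes CPA3, KIT and MS4A2 were at 0. The endothelial list stood at 2.28 in CT-LCG carriers against 0.0332 in keratinocytes, all of it PECAM1, which leukocytes share, and at 0.0930 against 0.0366 for FT-LCG, and VWF was at 0. The T cell list stood at 0.759 against 0.0272 and at 0.105 against 0.0284, and the cycling list at 0.338 against 0.0975 and at 1.17 against 0.199. The part of these transcripts in the results below was not tested. The neutrophil list had a level of 3.63 in the CT-LCG carriers, against 28.0 in keratinocytes, and 0.337 in the FT-LCG carriers, against 0.713. It stood at 64.9 (59.0 to 71.2) in CT-LCG antigen-presenting cell-like cells that were not carriers, and at 0.186 in those of FT-LCG. The CT-LCG cells among these had a median of 6.32 and a highest value of 574, with UMIs of CSF3R and CXCR1. The list includes S100A8, and its level without that gene was not computed. One CT-LCG carrier had no CD74, 113 CXCL8 UMIs, 12 S100A8 UMIs and 1 UMI of the neutrophil gene CSF3R, and it lay in an antigen-presenting cell-like cluster. Across the CT-LCG carriers the neutrophil list ran from 0 to 99.6 with a median of 0.977, so the summed level of 3.63 does not describe every carrier.

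Keratin transcripts differed between the carriers of both libraries. KRT5, KRT14, KRT1 and KRT10 together made up a median of 0.390% of the UMIs of a CT-LCG carrier (0.134 to 4.31) and 2.24% of an FT-LCG carrier (0.101 to 5.39), against medians of 4.35% and 4.72% in keratinocytes. By summed level the basal keratinocyte list was lower in CT-LCG carriers than in keratinocytes, at 21.9 against 74.1, but higher in FT-LCG carriers, at 293 against 228. By the median cell it was lower in the carriers of both libraries, at 6.87 against 22.6 in CT-LCG and 135 against 234 in FT-LCG. KRT5, KRT14, KRT1 and KRT10 together were under 1% in 8 of 10 CT-LCG and 14 of 41 FT-LCG carriers. Of the FT-LCG carriers 6, and of the CT-LCG carriers 0, were among the 5% of cells with the highest doublet scores of their library. Among the FT-LCG carriers under 1% keratin, 92.9% had CD74 (66.1 to 99.8).

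The antigen-presenting cell-like clusters were 2 in number, and CXCL8 was highest there in both libraries. In the first, with the higher CD207 level of both (5.23 in CT-LCG versus 3.45 in FT-LCG), the CXCL8 level was 119.6 (114 to 126) in 18 CT-LCG cells and 92.9 (89.1 to 96.8) in 38 FT-LCG cells. In the second it was 73.3 (64.8 to 82.5) in 12 CT-LCG cells and 26.3 (25.2 to 27.5) in 33 FT-LCG cells. The second cluster held C1QA in 4 of 12 CT-LCG cells and in 0 of 33 FT-LCG cells, and its median keratin share was 0.998% in CT-LCG versus 3.33% in FT-LCG. CD74 was found in only 5 of its 12 CT-LCG cells and in 33 of 33 FT-LCG cells, beside 18 of 18 and 38 of 38 in the first cluster. By CD74 the name of the second cluster is thus less certain in CT-LCG. In FT-LCG its cells had a median of 21753 UMIs against 3983 in the first cluster, whose median keratin share was 0.858%. The part of depth and of keratinocyte transcripts in its lower CXCL8 level was not tested. Over both clusters the level was 109 (104 to 114) in CT-LCG versus 42.0 (40.7 to 43.3) in FT-LCG, while the mean over cells, in which each cell weighs the same whatever its depth, was 98.2 and 71.8. A CXCL8 UMI was found in 26 of 30 CT-LCG and 59 of 71 FT-LCG cells of these clusters.

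Outside the antigen-presenting cell-like cells CXCL8 was low. The next highest levels were in FT-LCG, 11.9 in the mast cell-like cluster, where 84 of 86 UMIs came from 1 carrier, and 4.46 in the small T cell-like cluster, which held 3 carriers. Every other cluster in either library had a level below 0.9. The keratinocytes had 0.0574 (0.0452 to 0.0719) in CT-LCG versus 0.0677 (0.0591 to 0.0772) in FT-LCG.

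Fibroblast-like cells were near the same level, with 3 CXCL8 UMIs in 105 CT-LCG cells and 7 UMIs in 129 FT-LCG cells. A UMI was seen in 5.82% of CT-LCG and 6.41% of FT-LCG keratinocytes, beside 2.86% (0.593 to 8.12) and 5.43% (2.21 to 10.9) of fibroblast-like cells at median depths of 4121 and 3848 UMIs and with overlapping intervals, and no expression was read from these shares. At least 10 CXCL8 UMIs were found in 2 keratinocytes of either library, with a maximum of 10 in CT-LCG against 15 in FT-LCG. The highest share among the epithelial clusters was 11.8% (10.4 to 13.3) in an unnamed FT-LCG cluster of 2076 cells with a median of only 1127 UMIs.

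**Figure D3:**
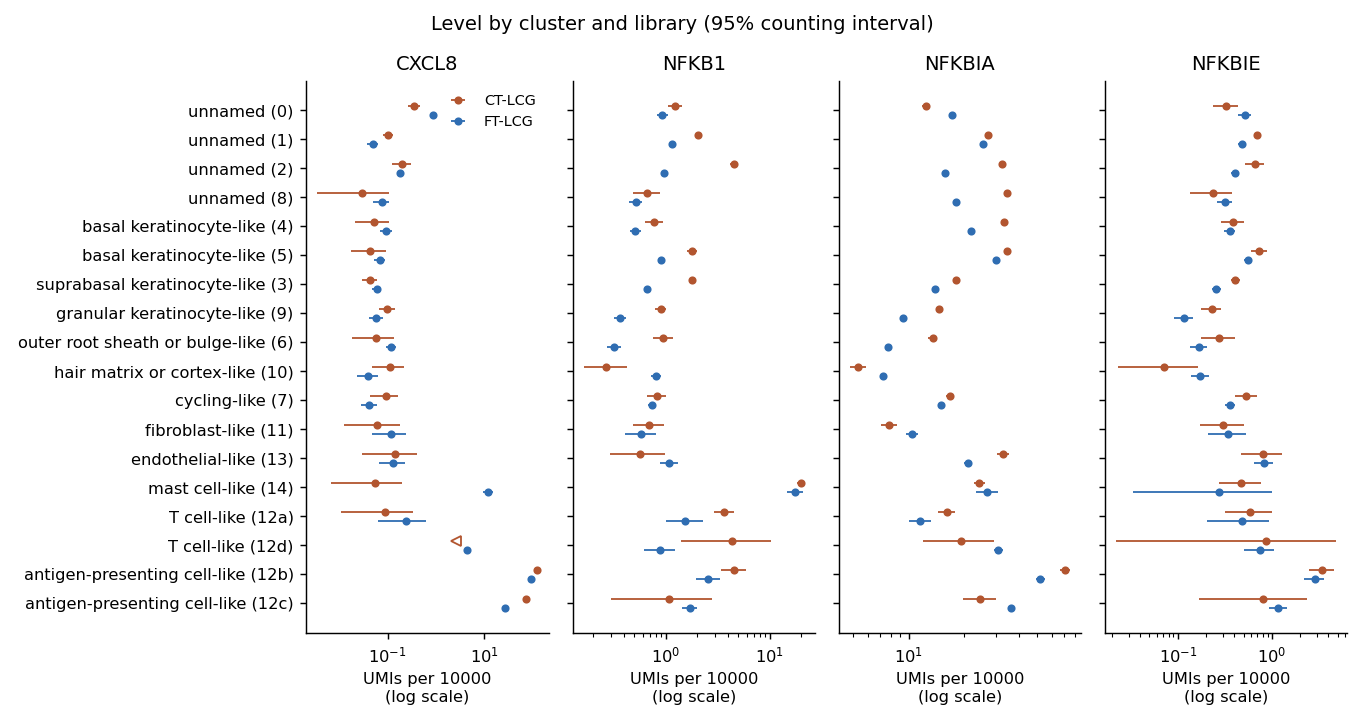
Levels of CXCL8, NFKB1, NFKBIA and NFKBIE (UMIs per 10000, log scale) in each cluster of CT-LCG and FT-LCG, with 95% Poisson intervals; an open triangle marks 0 UMIs and stands at the limit of 3 counts. CXCL8 and NFKBIA peak in the first antigen-presenting cell-like cluster (12b), and NFKB1 peaks in the mast cell-like cluster (14) at 19.8 and 17.5.

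CCL24, the other chemokine, was nearly absent, with 3 UMIs in 3 CT-LCG cells and 34 UMIs in 11 FT-LCG cells. In CT-LCG each of the 3 cells had 1 UMI, and 1 of them was a carrier with 57 CXCL8 and 93 CD74 UMIs. In FT-LCG the counts were 9, 8, 4, 3, 3, 2 and 5 times 1. All 6 FT-LCG cells with at least 2 UMIs lay in the antigen-presenting cell-like clusters, all had CD74 and CXCL8, and 5 of them were carriers. The level in FT-LCG carriers was 0.244 from 21 UMIs against 0.000610 from 2 UMIs in keratinocytes, a log2 ratio of 8.64 (6.61 to 11.78). In CT-LCG the counts were 1 and 0, which allow no ratio.

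NFKB1, which encodes the p105 and p50 subunit, was spread over many cells, with a UMI in 40.7% of CT-LCG and 34.6% of FT-LCG cells. Its level over all cells was 1.88 (1.83 to 1.93) in CT-LCG versus 0.799 (0.780 to 0.818) in FT-LCG. It was highest in the mast cell-like cluster, at 19.8 (18.4 to 21.3) and 17.5 (14.5 to 20.8). In CT-LCG the first antigen-presenting cell-like cluster followed at 4.52 (3.42 to 5.85), and its interval overlapped those of the TRPV3-led cluster at 4.50 (4.11 to 4.93) and of the T cell-like clusters at 4.36 (1.42 to 10.2) and 3.63 (2.88 to 4.52). In FT-LCG the same cluster came second at 2.57 (1.96 to 3.30), followed by the second antigen-presenting cell-like cluster at 1.70 (1.42 to 2.02) and a T cell-like cluster at 1.55 (1.01 to 2.27), with overlapping intervals between neighbours. The lowest levels were 0.269 in the hair matrix or cortex-like cluster of CT-LCG and 0.318 in the FT-LCG cluster named outer root sheath or bulge-like.

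NFKBIA, which encodes IkB alpha, was detected in 85.9% of CT-LCG and 86.7% of FT-LCG cells. The level over all cells was 22.0 (21.9 to 22.2) and 17.6 (17.5 to 17.7). The first antigen-presenting cell-like cluster ranked highest in both libraries, at 70.9 (66.4 to 75.7) in CT-LCG versus 52.0 (49.2 to 55.0) in FT-LCG. In CT-LCG 2 clusters followed at 34.2 (32.9 to 35.7) and 34.1 (33.2 to 35.0), one unnamed and one basal keratinocyte-like, and did not differ beyond counting error. In FT-LCG the second antigen-presenting cell-like cluster followed at 36.3 (35.0 to 37.7), then the small T cell-like cluster at 30.8 (29.1 to 32.5) and a basal keratinocyte-like cluster at 29.8 (29.4 to 30.2), the last 2 with overlapping intervals. The hair matrix or cortex-like cluster was lowest in both libraries, at 5.30 (4.78 to 5.87) and 7.27 (7.03 to 7.53).

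NFKBIE, which encodes IkB epsilon, was found in 22.1% of CT-LCG and 20.4% of FT-LCG cells at levels of 0.496 (0.470 to 0.523) and 0.370 (0.357 to 0.383). The first antigen-presenting cell-like cluster again ranked highest, at 3.41 (2.47 to 4.59) in CT-LCG versus 2.86 (2.22 to 3.63) in FT-LCG. The second stood at 1.17 (0.940 to 1.44) in FT-LCG and at 0.814 (0.168 to 2.38) from only 3 UMIs in CT-LCG. All other clusters were below 0.9 in both libraries.

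In the carriers all 3 of these genes were higher than in keratinocytes, in both libraries. The NFKBIA levels of the 10 CT-LCG carriers, in the order of CXCL8, were 129, 88.4, 38.9, 118, 83.0, 35.1, 71.0, 71.8, 28.1 and 55.5, and those of the 41 FT-LCG carriers ranged from 6.58 to 139 with a median of 41.8. The median keratinocyte stood at 16.1 in CT-LCG versus 9.65 in FT-LCG, and 10 of 10 and 40 of 41 carriers lay above it. Single keratinocytes reached 174 and 223, so the ranges overlapped.

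Summed over cells, NFKBIA was at 67.3 in CT-LCG carriers and 20.7 in keratinocytes, a ratio of 3.25 with a log2 ratio of 1.70 (1.60 to 1.80). In FT-LCG it was at 42.0 and 18.3, a ratio of 2.30 with a log2 ratio of 1.20 (1.15 to 1.25). These ratios depend on the mix of keratinocytes. The basal keratinocyte-like clusters stood above the summed level, at 33.1 and 34.1 in CT-LCG and at 21.9 and 29.8 in FT-LCG. The suprabasal and granular keratinocyte-like clusters stood below it in both libraries. Carriers were above the basal clusters too, but by less, and a ratio to basal cells alone was not computed.

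NFKB1 counts in the CT-LCG carriers were 8, 4, 12, 0, 11, 4, 0, 13, 13 and 1 UMIs, and in the FT-LCG carriers they ran from 0 to 13 with a median of 3. The level was 5.57 in CT-LCG carriers against 1.48 in keratinocytes, a log2 ratio of 1.91 (1.53 to 2.27). In FT-LCG it was 2.08 against 0.636, a log2 ratio of 1.71 (1.48 to 1.93). NFKBIE counts were 1, 2, 6, 0, 8, 0, 3, 4, 2 and 0 UMIs in the CT-LCG carriers and 0 to 11 with a median of 3 in those of FT-LCG. Its level was 2.19 against 0.405 in CT-LCG, a log2 ratio of 2.44 (1.81 to 3.01), and 1.45 against 0.320 in FT-LCG, a log2 ratio of 2.18 (1.90 to 2.45).

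Carriers, which were chosen for their CXCL8, held 1.26% and 2.62% of the NFKB1 UMIs, 1.30% and 2.40% of those of NFKBIA, and 1.88% and 3.95% of those of NFKBIE. In the FT-LCG carriers under 1% keratin the log2 ratios were larger than in all carriers, 2.56 for NFKB1, 1.71 for NFKBIA and 3.03 for NFKBIE. With every cell reduced to 1000 UMIs the CT-LCG ratio of NFKB1 was 3.07 on the log2 scale, from 12 UMIs in carriers. The same reduction left 2 NFKBIE UMIs in CT-LCG carriers, with an interval from -1.0 to 4.05.

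Antigen-presenting cell-like cells that were not carriers also exceeded keratinocytes in NFKBIA, with log2 ratios of 0.84 (0.66 to 1.02) in CT-LCG versus 1.00 (0.92 to 1.08) in FT-LCG, and in NFKBIE, with 2.98 (2.30 to 3.60) and 2.17 (1.74 to 2.56). For NFKB1 the same cells gave -0.35 (-1.56 to 0.63) in CT-LCG, where they held only 8 UMIs, and 1.07 (0.63 to 1.47) in FT-LCG.

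The carriers were therefore also set against the other cells of their own class, 9 against 21 cells in CT-LCG and 34 against 37 in FT-LCG. In CT-LCG this class was mixed. CD74 was found in 23 of its 30 cells, and the neutrophil list stood at 64.9 in its 21 other cells against 3.63 in all carriers. In FT-LCG the summed level of the basal keratinocyte list was 374 in the 37 other cells, 293 in all carriers and 228 in keratinocytes. By the median cell it was 111, 135 and 234. The part of the CT-LCG mixture and of these keratinocyte transcripts in the ratios was not tested. NFKB1 was 4.82-fold higher in CT-LCG carriers (log2 2.27, 1.19 to 3.55) and 1.69-fold higher in FT-LCG carriers (log2 0.76, 0.28 to 1.25). NFKBIA was 2.08-fold higher in CT-LCG (log2 1.06, 0.85 to 1.27) and 1.15-fold higher in FT-LCG (log2 0.20, 0.11 to 0.30). NFKBIE had log2 ratios of -0.33 (-1.23 to 0.57) and 0.20 (-0.29 to 0.70), so no difference was detectable at this depth. CCL24 in FT-LCG was at 0.332 in carriers and 0.266 in the other cells, from 21 and 10 UMIs, a log2 ratio of 0.32 (-0.83 to 1.57). CD74 was close in both sets, with log2 ratios of 0.20 (0.04 to 0.36) and 0.30 (0.19 to 0.40).

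Depth moved with this comparison, since the medians were 9954 UMIs in CT-LCG carriers against 2208 in the other cells and 16360.5 against 4027 in FT-LCG. At 1000 UMIs per cell the log2 ratio of NFKB1 was 2.47 (0.68 to 4.60) in CT-LCG versus 1.00 (-0.64 to 2.88) in FT-LCG, and that of NFKBIA 0.98 (0.52 to 1.43) and 0.23 (-0.11 to 0.57). The FT-LCG intervals then included 0. The CD74 ratio was 1.03 (0.58 to 1.48) in CT-LCG at that depth, from 82 and 89 UMIs, and 0.27 (-0.03 to 0.57) in FT-LCG.

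**Figure D4:**
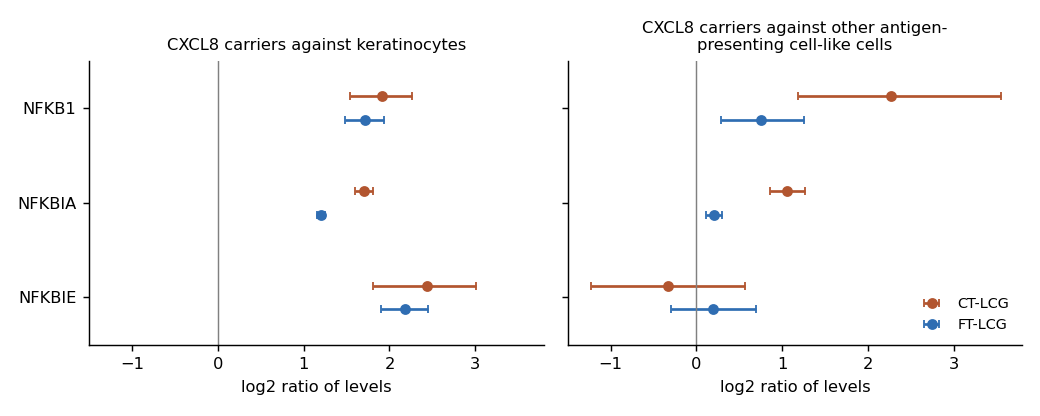
Log2 ratio of the level in CXCL8 carriers to that in keratinocytes (left) and in the other antigen-presenting cell-like cells (right) for NFKB1, NFKBIA and NFKBIE, with exact 95% intervals for counting error; 0 means equal levels. All 6 intervals on the left lie above 1, and both NFKBIE intervals on the right include 0.

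The wider pathway was read from lists of NF-kB genes, counting genes with at least 10 UMIs in carriers and keratinocytes together and a difference of at least 2-fold. Of 57 pathway genes other than CXCL8 in CT-LCG, 32 were higher in carriers and 1 was lower, while among all 12263 genes compared 20.3% were higher and 9.75% lower. Of 60 pathway genes in FT-LCG, 37 were higher and 1 was lower, beside 16.1% and 10.4% of all 13830 genes. The median log2 ratio was 1.29 and 1.53, against 0.00 and 0.01 over all genes.

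Some of these genes were compared only because they were high in the carriers. Among genes for which at least 5 UMIs would be expected in carriers at the pooled level, 10 of 19 pathway genes were higher in CT-LCG, beside 11.1% of all genes, and 24 of 43 in FT-LCG, beside 9.79%. The pooled level counts the carriers' own UMIs, so a gene can still pass this limit through the carriers. The limit thus does not remove this selection.

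The counts by list against keratinocytes have no limit on expected UMIs, so genes with few keratinocyte UMIs entered them only through the carriers. Beside them, 20.3% of all genes were higher and 9.75% lower in CT-LCG, and 16.1% and 10.4% in FT-LCG. Among the NF-kB subunits 3 of 5 were higher in CT-LCG and 4 of 5 in FT-LCG. REL, the c-Rel subunit, had log2 ratios of 0.84 (0.53 to 1.13) and 1.59 (1.45 to 1.73), and NFKB2, the p100 subunit of the alternative pathway, 3.16 (2.41 to 3.84) and 2.87 (2.56 to 3.16). RELB, its partner, had 2.21 (1.29 to 3.01) and 1.59 (1.20 to 1.97). RELA was the subunit not past 2-fold in either library, at 0.85 (-0.21 to 1.74) and 0.15 (-0.34 to 0.59).

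Of the 6 IkB genes 4 were higher in each library, NFKBIA, NFKBIE and NFKBID in both, BCL3 in CT-LCG and NFKBIZ in FT-LCG. NFKBIZ, which encodes the nuclear IkB zeta, had 0.32 (-0.08 to 0.69) in CT-LCG versus 1.10 (0.95 to 1.26) in FT-LCG. NFKBIB, which encodes IkB beta, had 0.90 (0.02 to 1.65) and 0.99 (0.70 to 1.27). BCL3, an atypical IkB, had 1.29 (0.47 to 2.00) and 0.41 (0.07 to 0.72).

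The kinases and adaptors stood nearer to the background, with 5 of 16 higher in CT-LCG and 6 of 16 in FT-LCG. CYLD, a deubiquitinase that limits NF-kB signalling, had the most UMIs of this list in carriers, at 1.87 (1.15 to 2.51) and 2.07 (1.82 to 2.32). TRAF3 had 0.86 (-0.77 to 2.10) and 1.58 (1.13 to 2.01), RIPK1 1.02 (-0.44 to 2.16) and 1.19 (0.74 to 1.62). In CT-LCG every gene of this list but CYLD had 6 or fewer UMIs in carriers, and CHUK, IKBKG, IRAK1 and IRAK3 had none.

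Feedback and survival targets were higher for 7 of 10 genes in CT-LCG, with 1 lower, and for 6 of 10 in FT-LCG. The shares of all genes higher were 20.3% and 16.1%. These counts have no limit on expected UMIs, and in CT-LCG PLAUR entered only through its carrier UMIs. BIRC3, an inhibitor of apoptosis, was at 2.51 (2.20 to 2.80) and 3.27 (3.11 to 3.43), and SOD2, the mitochondrial superoxide dismutase, at 2.33 (1.98 to 2.66) and 1.54 (1.39 to 1.69). PLAUR, the urokinase receptor, had 59 UMIs in carriers against 1 in keratinocytes of CT-LCG, a log2 ratio of 12.69 (10.15 to 18.01), and 254 against 26 in FT-LCG, a log2 ratio of 8.54 (7.96 to 9.18). IER3 had -0.86 (-1.18 to -0.56) and 0.01 (-0.08 to 0.10), and GADD45B, the lower gene of CT-LCG, -1.0 (-1.55 to -0.51) and -0.97 (-1.17 to -0.78).

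Inflammatory targets were higher for 10 of 11 genes in CT-LCG and 10 of 12 in FT-LCG, again without the limit on expected UMIs. The shares over all genes were 20.3% and 16.1%. IL1A, a cytokine that keratinocytes also store, was at 4.18 (3.85 to 4.49) and 3.57 (3.40 to 3.74). IL23A, the p19 subunit of IL-23, was at 6.04 (5.64 to 6.44) and 7.05 (6.74 to 7.37), and CD83, a marker of mature dendritic cells, at 7.76 (7.24 to 8.29) and 8.04 (7.46 to 8.66). IL1RN, which encodes the IL-1 receptor antagonist, was at 1.68 (0.96 to 2.32) and 1.56 (1.27 to 1.84). PTGS2 was not past 2-fold, at -0.90 (-3.95 to 0.96) and 0.38 (-0.22 to 0.92).

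Receptors upstream of NF-kB were higher for 3 of 7 genes in CT-LCG and 5 of 7 in FT-LCG, beside 20.3% and 16.1% of all genes. With so few genes these counts are a description. TNFRSF1B, the TNF receptor of immune cells, was at 7.20 (6.72 to 7.68) and 5.53 (5.24 to 5.82), whereas TNFRSF1A, the receptor of most cell types, was at -0.21 (-1.16 to 0.60) and 0.60 (0.39 to 0.80). CD40 was at 6.70 (5.49 to 7.89) and 4.64 (4.16 to 5.11). The CXCL8 receptor CXCR2 had 1 UMI in the carriers of each library. Of the chemokines listed with CCL24, CCL5 was at 11.21 (9.80 to 13.12) and 9.17 (8.73 to 9.65). In CT-LCG CCL5 passed the limit of 10 UMIs only through the carriers. CCL20 was at 0.79 (0.61 to 0.97) in CT-LCG, where its 259 UMIs came from 2 of 10 carriers, and at -0.47 (-0.58 to -0.36) in FT-LCG.

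Immediate early genes, which respond within minutes to stimulation and to tissue dissociation, had the opposite balance. Of 14 genes 8 were lower and 1 was higher in CT-LCG carriers, and 6 were lower and 1 was higher in FT-LCG carriers. Among all genes 9.75% were lower and 20.3% higher in CT-LCG, and 10.4% and 16.1% in FT-LCG. JUNB was at -1.48 (-1.76 to -1.21) and -1.16 (-1.24 to -1.08), and JUN at -2.33 (-2.71 to -1.98) and -1.31 (-1.40 to -1.21). JUND was at 0.06 (-0.16 to 0.28) and -0.26 (-0.34 to -0.19), and DUSP1 at -0.05 (-0.31 to 0.20) and -0.06 (-0.15 to 0.03). FOSL2 was the higher gene of both libraries, at 2.10 (1.59 to 2.57) and 1.13 (0.88 to 1.37).

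Against the other antigen-presenting cell-like cells the pathway lists stood nearer to all genes. In CT-LCG 7 of 38 pathway genes were at least 2-fold higher in carriers and 9 were lower, beside 13.2% and 18.1% of all 2492 genes compared. In FT-LCG 9 of 48 were higher and 3 were lower, beside 8.65% and 6.41% of 7088 genes. The median log2 ratio was 0.01 and 0.52. Of the immediate early genes 8 of 12 were at least 2-fold lower in CT-LCG and 6 of 14 in FT-LCG, and none was 2-fold higher. FOSL2 was at -0.33 (-1.05 to 0.39) and 0.72 (0.20 to 1.28) here, and JUNB at -1.30 (-1.69 to -0.92) and -0.95 (-1.08 to -0.81).

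**Figure D5:**
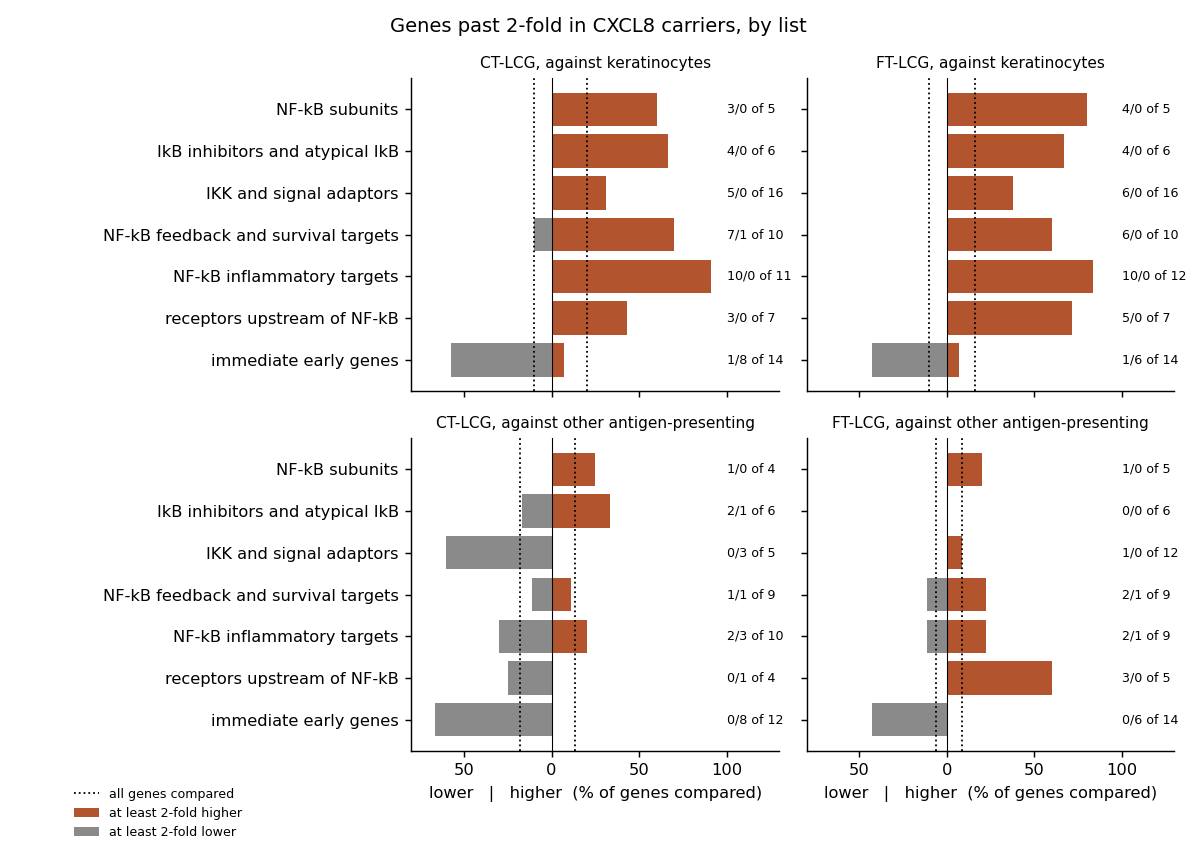
Percent of the genes of each list that were at least 2-fold higher (bars to the right) or lower (bars to the left) in CXCL8 carriers than in keratinocytes (top) or than in other antigen-presenting cell-like cells (bottom); numbers give higher/lower of the genes compared, and dotted lines the share over all genes compared. Against keratinocytes the inflammatory targets have 10 of 11 and 10 of 12 genes higher, and against their own class 2 of 10 and 2 of 9. Genes with few keratinocyte UMIs entered the counts against keratinocytes only through the carriers. Within the class TNFAIP6, PTGS2 and IL1RN were at least 2-fold lower in CT-LCG, and PTGS2 in FT-LCG.

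Only genes higher in carriers than in the other antigen-presenting cell-like cells were ranked, by the smaller log2 ratio of both libraries among 691 genes with at least 20 UMIs in the carriers of each. The first 10 were IL18BP, LOC102182115, TNFSF8, IL23A, BCL2A1, PPM1D, RNF121, KIF1B, CCL5 and CXCL16. IL18BP, which encodes a secreted binding protein of IL-18, was at 4.41 (3.02 to 6.31) in CT-LCG versus 2.46 (1.71 to 3.30) in FT-LCG and had a UMI in 6 of 9 and 15 of 34 carriers. IL23A was at 1.63 (0.91 to 2.41) and 1.99 (1.58 to 2.42), BCL2A1, an anti-apoptotic target of NF-kB, at 1.52 (0.65 to 2.48) and 1.68 (0.88 to 2.58), and TNFSF8, the CD30 ligand, at 2.39 (1.04 to 4.10) and 1.75 (0.72 to 2.96). LOC102182115, which has no symbol in the matrix or in the reference table, was at 2.16 (1.87 to 2.46) and 2.29 (2.04 to 2.55), with UMIs in 8 of 9 and 30 of 34 carriers. The filter counted carrier UMIs alone, so a gene entered through the set in which it was then ranked as higher. In the other CT-LCG cells IL18BP had 4 UMIs and RNF121 had 2. PPM1D was at 1.35 (-0.01 to 2.95) in CT-LCG. The genes were ranked by these ratios at full depth, which are given as a description.

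Over the 33 cluster and library profiles with at least 20 cells, the 10 genes with the highest Pearson correlation with CXCL8 among 13014 genes were PLAUR (r = 0.928), CSF2RA (0.926), LST1 (0.909), SPI1 (0.909), LOC102179937 (0.897), IL18BP (0.884), LOC102180291 (0.879), LOC102188267 (0.878), LOC102180880 (0.871) and TYROBP (0.862). CSF2RA encodes a chain of the GM-CSF receptor, SPI1 the myeloid transcription factor PU.1, and TYROBP an adaptor of myeloid receptors. CD74 ranked 25th (r = 0.816). The NF-kB genes ranked lower, NFKBIE 127th (0.579), NFKBIA 430th (0.439) and NFKB1 803rd (0.355). The antigen-presenting cell-like clusters of CT-LCG had 18 and 12 cells and did not enter, although they held 74.2% and 13.3% of its CXCL8 UMIs. Its small T cell-like cluster, with 10 cells, did not enter either. Those clusters were thus read in FT-LCG only, and every other cluster entered once per library. Profiles of 1 library share its depth and free RNA, so these values describe likeness of pattern only.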

How the data were processed

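The authors deposited a matrix of raw UMI counts from Cell Ranger (version 3.0.2 in its header) together with a table of the cells they kept. The submitters' processing notes also name bcl2fastq and Seurat 3.1.1. The authors' methods kept cells above a minimum number of genes. These notes list a human and a mouse genome build with no role, and the goat build and gene models behind the matrix are not named there. Counts were log-normalized, and 2000 variable genes, 10 principal components, Harmony on the library and Leiden clustering at resolution 0.5 gave 15 clusters. Harmony was written again in numpy. The cluster with most PTPRC was divided at resolution 0.2. Names required at least 3 markers, a mean log2 fold of 0.8, 80% of the markers above 0 and a marker among the 10 leading genes, the last waived for epithelial lists unless the cluster's median depth was far below that of its library. The division and this rule were set after the data were seen. Scrublet (scanpy 1.11.5) called 0 doublets in each library, so the caller did not work and its scores were used only as an alternative. Python 3.11.15, numpy 2.4.6, scipy 1.17.1 and leidenalg 0.10.2 were used.

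Levels have exact Poisson intervals, shares Clopper-Pearson intervals and ratios exact conditional binomial intervals, all at 95%. A count of 0 was set to 3 counts before a fold was judged. Depth ran from 729 to 172185 UMIs per cell in CT-LCG and from 630 to 190503 in FT-LCG. As each fibre type had 1 library, no test was run. The text names the 5 genes in the clusters and libraries, CD74, for each list up to 4 genes with most carrier UMIs, and 10 genes each by correlation with CXCL8 and by the ratio within the antigen-presenting cell-like class. Other genes named (RELA, NFKBID, BCL3, GADD45B, PTGS2, FOSL2 and list members at 0) were chosen after their values were seen. The members and lists were chosen with earlier results of these data known. The calculations were tested on simulated data.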

Additional observations from a re-analysis of the deposited data

Results flagged for a closer look

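UMIs of the members were also present in barcodes that the deposited cell table leaves out, 2659 in CT-LCG versus 1589 in FT-LCG. CXCL8 had 116 UMIs there in CT-LCG versus 135 in FT-LCG, at levels of 0.585 (0.484 to 0.702) and 1.35 (1.14 to 1.60) per 10000 UMIs, beside 0.730 and 0.638 in the kept cells. CD74 had 84 and 164 UMIs there, NFKB1 272 and 105, NFKBIA 2603 and 1698, and NFKBIE 67 and 44. CCL24 had none.

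For 2 genes the ratio of carriers to keratinocytes had opposite signs in the libraries, with both intervals off 0. CCL20 had log2 ratios of 0.79 in CT-LCG versus -0.47 in FT-LCG. EGR2, an immediate early gene, had -1.23 and 0.44. With 1 goat per fibre type the difference was not tested.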

How the results depend on the processing

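No paired analysis was possible because each fibre type is 1 goat and 1 library, and for the same reason no replicate could be left out. Of 97 alternatives over 26 results, 64 stayed within the counting interval or within 1.5 times the count and 33 moved. None changed sign where the main interval left out 0. The FT-LCG ratio of NFKBIE to the other antigen-presenting cell-like cells, whose main interval included 0, went from 0.20 to -0.65 at 1000 UMIs. All 56 alternatives of the ratios to keratinocytes stayed above 0. Carriers by keratin share or by cluster, the CXCL8 level without its top cell, the expected-count filter and the doublet-score filter were added after seeing the data.

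The number of cells in CT-LCG and FT-LCG was 3 and 15 for 50% of CXCL8 UMIs and 24 and 220 for 90%. Without the cell with most CXCL8 the level over all cells was 0.548 and 0.606, which turned the order of the libraries. CD74 was found in 100.0% of CT-LCG carriers under 1% keratin and in 78.0% of FT-LCG carriers at 1000 UMIs per cell. With all cells of at least 10 CXCL8 UMIs as carriers, the log2 ratio of NFKB1 was 1.32 in CT-LCG versus 1.31 in FT-LCG, and that of NFKBIA 1.31 and 0.97. At 1000 UMIs per cell NFKB1 was at 3.07 in CT-LCG versus 2.11 in FT-LCG, NFKBIA at 1.31 in FT-LCG, and NFKBIE against the other antigen-presenting cell-like cells at -0.65 in FT-LCG. In carriers under 1% keratin NFKBIA was at 1.88 in CT-LCG, and NFKB1, NFKBIA and NFKBIE at 2.56, 1.71 and 3.03 in FT-LCG. With keratinocytes taken by keratin share NFKBIA was at 1.56 in CT-LCG and NFKB1 at 1.41 in FT-LCG. In CT-LCG NFKBIA was at 1.55 without the cell with most CXCL8 and at 1.90 in carriers of the antigen-presenting cell-like clusters. As means over cells NFKB1, NFKBIA and NFKBIE were at 2.02, 1.34 and 2.50 in FT-LCG, and the CXCL8 level of the antigen-presenting cell-like cells at 98.2 in CT-LCG versus 71.8 in FT-LCG.

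With at least 5 UMIs expected in carriers, 10 pathway genes were higher in CT-LCG versus 24 in FT-LCG, since fewer genes were compared, and at 4-fold 21 were higher in FT-LCG. At the higher resolution the cluster with most CXCL8 held 78.9% in CT-LCG. Apart from the filter, the cause of these moves was not tested.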
